A study of Mus musculus with 778 samples.

Results

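The 10 genes described here encode the proteins that make microRNAs and small interfering RNAs and load them into effector complexes: *Dicer1*, *Drosha*, *Dgcr8*, *Xpo5*, *Tarbp2*, *Prkra* and the Argonaute genes *Ago1*, *Ago2*, *Ago3* and *Ago4*. They were taken by name, and all 10 were among the 23201 genes of the count table. Wild-type oocytes of female ICR mice were washed free of somatic cells, picked by hand and sorted by diameter into non-growing oocytes (NGO, under 20 μm, mice of 3 to 4 days), growing oocytes (GO1, 30 to 45 μm, GO2, 50 to 55 μm, and GO3, 60 to 65 μm) and fully-grown oocytes (FGO, over 70 μm), the last 4 stages from mice of 3 to 4 weeks. Single-cell RNA-seq counted transcripts by unique molecular identifier (UMI), a random tag that lets the copies of a cDNA molecule be counted once. The files held 46 NGO, 51 GO1, 26 GO2, 44 GO3 and 56 FGO cells. Every comparison with NGO is therefore also a comparison of mouse ages, and the effects of growth stage and age cannot be told apart.

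In the canonical pathway, DROSHA and its partner DGCR8 cut microRNA hairpins out of nuclear transcripts, exportin 5 (XPO5) carries them to the cytoplasm, and DICER1 cuts them to mature length together with the RNA-binding proteins TARBP2 and PRKRA. An Argonaute protein then holds the small RNA and finds its targets, and AGO2 can cleave them. Mouse oocytes are known for a strong endogenous small interfering RNA pathway, which needs DICER1 and AGO2 but neither DROSHA nor DGCR8, for weak microRNA activity, and for a shorter form of DICER1 made from a retrotransposon promoter inside the gene.

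For each stage the UMIs of all its cells were added up and expressed per 1000000 UMIs (CPM), which is a share of the UMIs and does not follow the RNA content of a cell. Stage totals were between 24976634 and 64311908 UMIs, and cells had 22279 to 3898137 UMIs. The cells came from 4 libraries and the names of the columns do not tell which, so each stage is 1 pooled sample without replicates: no difference between stages was tested, and the 95% intervals given (exact Poisson or binomial) cover counting error only. A gene was called higher or lower when its CPM differed between 2 stages by 2-fold or more and reached 10 CPM in either. Sums over GO1 rest on few cells, since 6 of its 51 cells had over 2000000 UMIs each and held 70.9% of the total, and 11 such cells held 53.1% of the FGO total, while no NGO cell was as deep. The average of the single-cell CPM values (the mean over cells), in which all cells weigh the same, is therefore given beside the sums. All 14 oocyte markers reached 10 CPM in some stage, and together they took 40322 CPM in NGO, 22346 CPM in GO1 and 31574 CPM in FGO. Markers of other cells also differed between NGO and GO1: the 12 granulosa cell markers summed to 16.3 CPM in NGO, 45.5 CPM in GO1 and 21.1 CPM in FGO, with *Cyp19a1* and *Nr5a2* reaching 10 CPM, and the 10 blood and endothelial markers to 4.84, 38.99 and 26.9 CPM, with *Pecam1* reaching 10 CPM and *Cd52*, *Hba-a1* and *Hbb-b1* at no UMI in any stage. The 10 stromal and theca markers went the other way, with 14.4 CPM in NGO and 5.46 CPM in GO1. The granulosa sum rose mostly through *Cyp19a1* (1.11 CPM in NGO, 16.3 CPM in GO1), *Nr5a2* (6.91 and 14.5 CPM) and *Kitl* (1.35 and 5.49 CPM). *Foxl2* (0.198 and 0.187 CPM), *Wt1*, *Inhba* and *Fshr* (2.82 and 2.32 CPM) were lower in GO1, and the remaining granulosa markers were higher. *Pecam1* alone held 37.6 CPM of the blood and endothelial sum in GO1. The part of these other cell types in the levels below was not tested.

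The main pattern was a difference between NGO and GO1 in the levels of some members relative to each other. *Dicer1* was higher and *Drosha* and *Tarbp2* were lower in GO1 than in NGO, and *Ago2* held a smaller share of the Argonaute UMIs. In the sums none of these differences in level from NGO to GO1 reached 2-fold. Of all genes that could be called, 20.6% were higher and 25.7% lower. In the mean over cells *Dicer1* and *Tarbp2* reached 2-fold, where 22.1% of all genes were higher and 34.6% lower. From NGO to FGO *Drosha* was called lower, as were 16% of all genes that could be called.

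Of the 5 members that reached 10 CPM, 4 had a promoter in the table used here, and these are shown so that members that moved together can be compared. They are the 250 bases before the annotated start in RefSeq (build GRCm38.p6), written from 5′ to 3′ on the strand of the gene, with the CCAAT box (letters CCAAT) and the GC box (letters GGGCGG) in capitals in either orientation, so that ATTGG and CCGCCC mark the reverse strand. *Dicer1* and *Ago3* were higher in GO1, and *Drosha* and *Tarbp2* lower.
Dicer1: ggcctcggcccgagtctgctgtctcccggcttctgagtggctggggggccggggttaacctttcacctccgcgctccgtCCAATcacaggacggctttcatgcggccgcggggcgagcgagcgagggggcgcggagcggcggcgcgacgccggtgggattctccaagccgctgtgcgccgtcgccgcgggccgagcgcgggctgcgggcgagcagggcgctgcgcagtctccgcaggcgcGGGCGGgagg
Ago3: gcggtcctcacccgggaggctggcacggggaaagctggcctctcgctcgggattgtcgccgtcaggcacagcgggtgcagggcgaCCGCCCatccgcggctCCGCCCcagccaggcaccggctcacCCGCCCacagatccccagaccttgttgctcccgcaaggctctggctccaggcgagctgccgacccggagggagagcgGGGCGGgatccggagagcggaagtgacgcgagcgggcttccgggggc
Drosha: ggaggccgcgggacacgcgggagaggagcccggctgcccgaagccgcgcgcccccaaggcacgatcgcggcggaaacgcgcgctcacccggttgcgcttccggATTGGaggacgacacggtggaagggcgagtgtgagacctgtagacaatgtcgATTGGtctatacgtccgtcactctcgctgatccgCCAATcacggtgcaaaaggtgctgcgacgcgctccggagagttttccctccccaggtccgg
Tarbp2: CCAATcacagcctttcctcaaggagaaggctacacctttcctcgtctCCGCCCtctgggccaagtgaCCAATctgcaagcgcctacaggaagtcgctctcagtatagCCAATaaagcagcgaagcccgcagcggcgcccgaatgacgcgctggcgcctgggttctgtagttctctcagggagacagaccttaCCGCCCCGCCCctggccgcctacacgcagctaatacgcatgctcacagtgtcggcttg
The *Dicer1* stretch lies on chromosome 12 from 104751953 to 104752202 (minus strand), the *Ago3* stretch on chromosome 4 from 126429543 to 126429792 (minus strand), the *Drosha* stretch on chromosome 15 from 12824565 to 12824814 (plus strand) and the *Tarbp2* stretch on chromosome 15 from 102517942 to 102518191 (plus strand). *Dicer1* had 1 CCAAT box and 1 GC box, *Ago3* 4 GC boxes and no CCAAT box, *Drosha* 3 CCAAT boxes and no GC box, and *Tarbp2* 3 of each. Neither box was found only in genes of 1 direction. Over the 32851 promoters of the table, 33.8% held a CCAAT box and 32.7% a GC box in a stretch of this length. Promoters of 9 members were in the table, and *Ago2* was not matched. None of the 9 held a TATA box (letters TATAAA, 12.4% of all promoters) or the letters TAATTG, a core bound by the oocyte homeobox factor NOBOX (7.17%). The E-box (letters CANNTG), the kind of element that oocyte bHLH factors bind, was found in *Dgcr8* and *Tarbp2* only, against 66.2% of all promoters. The members' promoters were rich in CG, with 15 to 46 CG dinucleotides each against a median of 6 over all promoters. The oocyte form of *Dicer1* starts inside the gene, so its promoter is not the one printed.

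*Dicer1* (NCBIM37 chromosome 12, 105925952 to 105990162, minus strand) encodes the RNase III enzyme that makes both mature microRNAs and small interfering RNAs. It was the most abundant member in every stage, per UMI and per kilobase of exon, and had at least 1 UMI in each of the 223 cells. Its summed level was 378, 721, 612, 637 and 581 CPM in stage order, which put it above 97.96% of all genes in NGO and 99.2% in GO1. In NGO the lowest, median and highest cells had 118.5, 363 and 616 CPM. In GO1 they had 249, 1030 and 2471 CPM, and 46 of the 51 GO1 cells lay above the highest NGO cell. The ranges of the later stages were 426 to 3286 CPM in GO2 (median 638), 371 to 1417 CPM in GO3 (median 663) and 330 to 2274 CPM in FGO (median 607), so each overlapped both GO1 and NGO.

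From NGO to GO1 the *Dicer1* sum was 1.91-fold higher (95% counting interval 1.86 to 1.96), just under the 2-fold limit. The mean over cells was 367 ± 101.4 CPM (SD over 46 cells) in NGO and 1114 ± 448 CPM (SD over 51 cells) in GO1, a difference of 3.03-fold, and a GO1 cell had the higher level in 97.6% of all pairs of an NGO and a GO1 cell. The deep GO1 cells weigh most in the sum: the 6 cells with over 2000000 UMIs had 460 to 662 CPM of *Dicer1*, and the other 45 had a median of 1109 CPM. In cells with 50000 to 1000000 UMIs, a window that held 40 NGO and 32 GO1 cells and was chosen after the depths were seen, *Dicer1* was 3.22-fold higher in GO1 (95% counting interval 3.12 to 3.33). With every cell thinned to 20000 UMIs, the mean was 7.07 UMIs of *Dicer1* per NGO cell and 22.8 per GO1 cell. The part of depth in this difference was not tested.

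**Figure D1:**
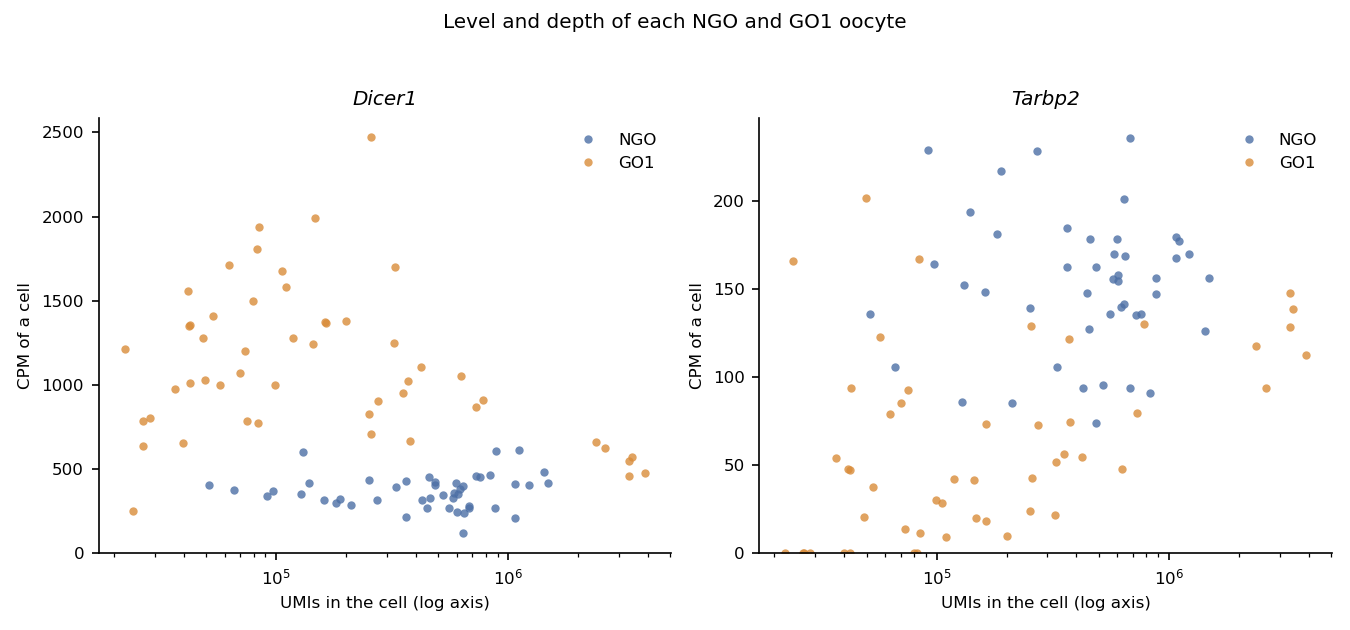
Level in CPM (vertical axis) against UMIs per cell (horizontal log axis) for *Dicer1* and *Tarbp2*, with a point for each of the 46 NGO and 51 GO1 cells. The 6 GO1 cells to the right of 2000000 UMIs have 460 to 662 CPM of *Dicer1*, below the median of 1109 CPM of the other GO1 cells, and at least 94 CPM of *Tarbp2*, above the median of 42.9 CPM of the others.

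After GO1, *Dicer1* was lower again by smaller steps. The sum was 1.18-fold lower in GO2 than in GO1 (95% counting interval 1.15 to 1.20), 1.04-fold higher in GO3 than in GO2 (1.02 to 1.06) and 1.10-fold lower in FGO than in GO3 (1.08 to 1.11). Both of the last steps changed direction in the mean over cells, which was 812 CPM in GO2, 693 CPM in GO3 and 705 CPM in FGO. In FGO the *Dicer1* sum was 1.54-fold above NGO (95% counting interval 1.502 to 1.57), and 26 of the 56 FGO cells lay above the highest NGO cell. Within the stages, the level of *Dicer1* and the depth of the cell had Spearman correlations of 0.13, -0.21, -0.61, -0.34 and -0.42 in stage order, as a description over the cells of each stage, which share libraries. Counts were made per gene, so the full-length transcript and the shorter oocyte transcript cannot be told apart.

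The Microprocessor subunits behaved differently from each other. *Drosha* (chromosome 15, 12754570 to 12865045, plus strand), the nuclear RNase III enzyme, had 57.7, 29.8, 19.7, 20.8 and 21.6 CPM from NGO to FGO. In NGO the lowest, median and highest cells had 22.9, 57.1 and 99.1 CPM, and every NGO cell had at least 1 UMI. In GO1 the range was wide, from 0 to 166 CPM with a median of 26.6 CPM. Of the 51 GO1 cells, 20 lay below the lowest NGO cell and 3 above the highest. The median depth was 540432 UMIs in NGO and 110146 in GO1, so this range and these counts of cells also depend on depth. In the thinned cells *Drosha* had a UMI in 31 of 46 NGO, 28 of 51 GO1 and 19 of 56 FGO cells. In FGO the range was 0 to 81.2 CPM with a median of 20.7 CPM, 34 of the 56 cells lay below every NGO cell, and an FGO cell had the higher level in 3.69% of all pairs with an NGO cell.

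From NGO to GO1 the *Drosha* sum was 1.93-fold lower (95% counting interval 1.77 to 2.11) and the mean over cells 1.55-fold lower. The size of this step was unsteady, at 1.13-fold with every cell thinned to 20000 UMIs and 2.86-fold with 26 cells drawn from each stage. From GO1 to GO2 the sum was lower by a further 1.51-fold (1.35 to 1.69), which was 2.22-fold in the thinned cells and 1.04-fold with 26 cells a stage. From NGO to FGO it was 2.67-fold lower (2.48 to 2.87) in the sums, 2.73-fold lower in the mean over cells and 2.97-fold lower in the cells of 50000 to 1000000 UMIs (2.62 to 3.38). The levels of *Drosha* in GO2, GO3 and FGO had overlapping counting intervals. Of the 10 members, *Drosha* was the only one called in any of the 6 comparisons of summed counts. That call was from NGO to FGO, where 16% of the 8132 genes that could be called were lower.

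*Dgcr8* (chromosome 16, 18254041 to 18289342, minus strand), whose protein binds the hairpin for DROSHA, had 5.04, 5.94, 5.12, 6.94 and 6.61 CPM from NGO to FGO and never reached 10 CPM. The highest cell was at 14.5 CPM in NGO, 93.04 CPM in GO1 and 18.1 CPM in FGO, the lowest cell had no UMI in any stage, and 34 of 46 NGO cells and 19 of 51 GO1 cells had a UMI. The median depth was 540432 UMIs in NGO and 110146 in GO1, so such counts of cells also depend on depth. In the thinned cells the order turned, with a UMI of *Dgcr8* in 4 of 46 NGO and 7 of 51 GO1 cells. Its level in GO1 was 1.18 times that in NGO with a counting interval from 0.928 to 1.501, so no difference was detectable at this depth. *Drosha* made up 91.97% (95% Clopper-Pearson interval 90.5 to 93.3) of the *Drosha* and *Dgcr8* UMIs in NGO, 83.4% (80.9 to 85.7) in GO1 and 75% (72.6 to 77.3) in GO3. Exons of *Dgcr8* overlap those of *Trmt2a* on the other strand and *Mir1306* on the same strand, and the sources used here do not say whether counting used strand, so its counts are uncertain.

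*Xpo5* (chromosome 17, 46339804 to 46379248, plus strand), the export receptor, had 7.70, 3.51, 2.76, 4.24 and 4.93 CPM. A UMI was found in 43 of 46 NGO cells, 23 of 51 GO1 cells, 18 of 26 GO2 cells, 38 of 44 GO3 cells and 42 of 56 FGO cells, and the highest cell was at 40.5 CPM in GO1 and 30.3 CPM in NGO. In the thinned cells a UMI was found in 7 of 46 NGO, 6 of 51 GO1 and 6 of 56 FGO cells. For GO2 and GO3 the thinned counts were 1 of 26 and 3 of 44 cells. The sum was 2.19-fold lower in GO1 than in NGO (95% counting interval 1.70 to 2.83) but stayed under 10 CPM in both, so the rule could not call it. In the cells of 50000 to 1000000 UMIs the ratio was 1.29 with an interval from 0.918 to 1.83, which was not beyond counting error.

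**Figure D2:**
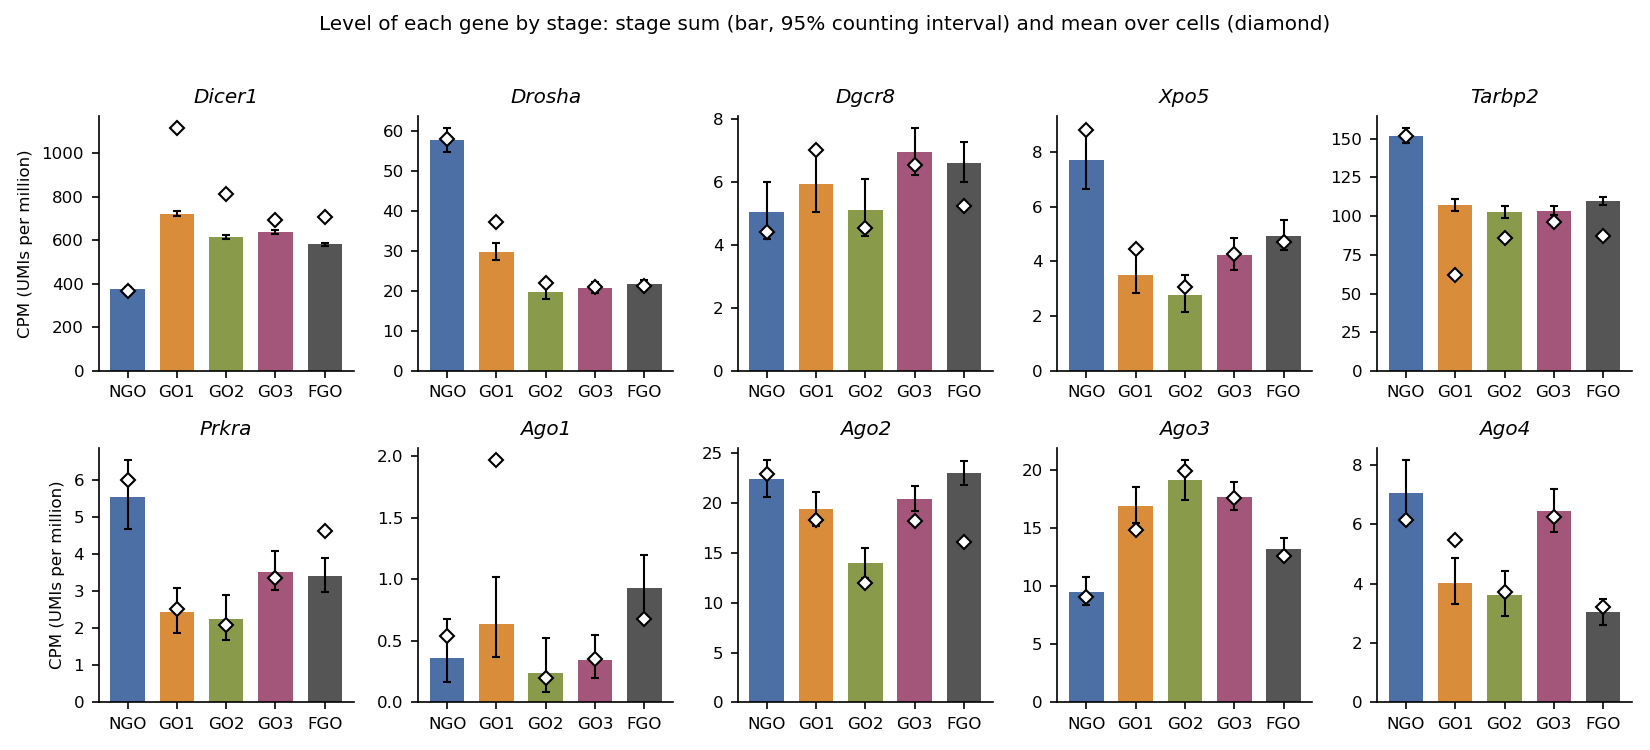
Level of each of the 10 genes in CPM (vertical axis, a separate scale for each gene, starting at 0) by stage. Bars are stage sums with 95% counting intervals and diamonds are means over the 26 to 56 cells of a stage. The *Dicer1* sum is 378 CPM for NGO and 721 CPM for GO1, where its mean over cells is 1114 CPM, whereas *Drosha* goes from 57.7 to 29.8 CPM.

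The partners of DICER1 were both at their highest in NGO. *Tarbp2* (chromosome 15, 102348623 to 102354107, plus strand), which helps to load the small RNA, was the second most abundant member in every stage, with 107.2, 102.8, 103.6 and 109.6 CPM from GO1 to FGO and 151.995 CPM in NGO. In NGO the lowest, median and highest cells had 74.2, 155.4 and 236 CPM. In GO1 they had 0, 48.04 and 202 CPM, and 32 of the 51 GO1 cells lay below every NGO cell while none lay above all of them. FGO cells ranged from 5.71 to 164 CPM with a median of 87.1 CPM, and 18 of 56 lay below every NGO cell. The sum was 1.42-fold lower in GO1 than in NGO (95% counting interval 1.35 to 1.49), the mean over cells 2.45-fold lower (151.8 ± 39.2 CPM against 62.04 ± 52.95 CPM, SD over 46 and 51 cells) and the sum over cells of 50000 to 1000000 UMIs 2.26-fold lower (2.05 to 2.49).

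From GO1 on, the *Tarbp2* sums differed by less than 1.1-fold from stage to stage, and the mean over cells was 62.04 CPM in GO1 and 85.8 CPM in GO2. Spearman correlations of the *Tarbp2* level with the depth of the cell were 0.02, 0.44, 0.57, 0.34 and 0.66 in stage order, the opposite sign to those of *Dicer1* in the growing and fully-grown stages. *Prkra* (chromosome 2, 76467955 to 76486072, minus strand), the second partner, had 5.56, 2.43, 2.24, 3.53 and 3.42 CPM. It had a UMI in 36 of 46 NGO cells, 17 of 51 GO1 cells and 40 of 56 FGO cells, and its sum in GO1 was 2.29-fold below that in NGO (95% counting interval 1.69 to 3.12), under 10 CPM in both. In the thinned cells *Prkra* had a UMI in 5 of 46 NGO, 1 of 51 GO1 and 6 of 56 FGO cells. *Tarbp2* held 96.5% (95.9 to 97.03) of the *Tarbp2* and *Prkra* UMIs in NGO, 97.8% (97.2 to 98.3) in GO1 and 96.97% (96.6 to 97.4) in FGO. Divided by exon length the shares were 92.4%, 95.2% and 93.5%, so *Tarbp2* transcripts outnumbered those of *Prkra* by either count. Protein was not measured.

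**Figure D3:**
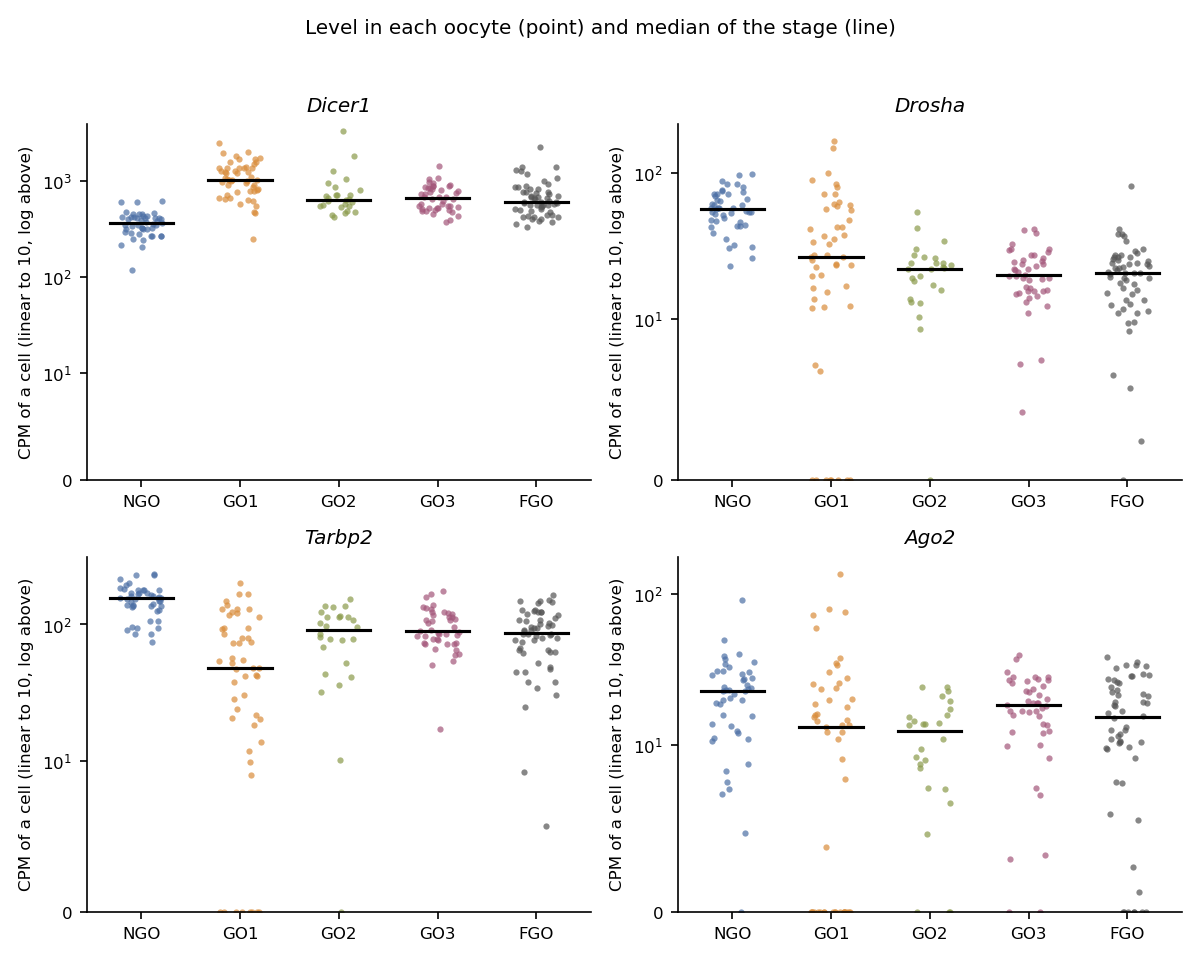
CPM in each of the 223 cells (points; vertical axis linear to 10 CPM and logarithmic above) by stage for *Dicer1*, *Drosha*, *Tarbp2* and *Ago2*, with the stage median as a line. For *Dicer1*, 46 of 51 GO1 cells lie above every NGO cell, and for *Tarbp2*, 32 of 51 GO1 cells lie below every NGO cell.

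The Argonaute genes were at lower levels than *Dicer1* and *Tarbp2*. *Ago2* (chromosome 15, 72932055 to 73015377, minus strand), which encodes the Argonaute that cleaves its targets, had 22.4, 19.4, 13.9, 20.4 and 22.97 CPM. The lowest cell had no UMI in any stage, and the median and highest cells were at 22.5 and 90.8 CPM in NGO, 13.2 and 135.9 CPM in GO1, 12.3 and 24.2 CPM in GO2, 18.2 and 39.3 CPM in GO3 and 15.3 and 37.9 CPM in FGO. The cells of all stages overlapped. The sum was lowest in GO2, 1.39-fold below GO1 (95% counting interval 1.21 to 1.60), and it was 1.46-fold higher in GO3 than in GO2 (1.29 to 1.66), a step that was 1.13-fold with an interval from 0.882 to 1.45 in the cells of 50000 to 1000000 UMIs. FGO and NGO did not differ beyond counting error in the sums (ratio 1.02, interval 0.929 to 1.13), whereas the mean over cells was 1.43-fold lower in FGO, at 16.1 against 22.9 CPM. In the cells of 50000 to 1000000 UMIs *Ago2* was 1.83-fold lower in FGO than in NGO (1.54 to 2.20), and with thinned cells 2.10-fold lower, so the sums, in which deep FGO cells weigh most, and these values differ.

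*Ago3* (chromosome 4, 126008948 to 126106800, minus strand), whose protein binds microRNAs, was highest where *Ago2* was lowest, with 9.52, 16.9, 19.1, 17.7 and 13.2 CPM. The median and highest cells were at 8.52 and 30.3 CPM in NGO, 11.9 and 82.6 CPM in GO1, 18.5 and 61.2 CPM in GO2, 16.2 and 35.9 CPM in GO3 and 11.1 and 51.2 CPM in FGO. Every GO2 and GO3 cell had a UMI of *Ago3*, against 31 of 51 GO1 cells. The median depth was 110146 UMIs in GO1, 676786 in GO2 and 972294 in GO3. In cells thinned to 20000 UMIs, *Ago3* was found in 15.7% of GO1, 23.1% of GO2 and 18.2% of GO3 cells. The sum was 1.77-fold higher in GO1 than in NGO (95% counting interval 1.51 to 2.08), 1.64-fold in the mean over cells and 1.88-fold in the cells of 50000 to 1000000 UMIs (1.47 to 2.39). With every cell thinned to 20000 UMIs the direction turned, with 9.78 CPM in NGO and 8.82 CPM in GO1, on a mean of 0.196 and 0.176 UMIs of *Ago3* per cell. From GO3 to FGO it was 1.34-fold lower (1.22 to 1.47).

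*Ago4* (chromosome 4, 126166785 to 126210716, minus strand) had 7.06, 4.04, 3.60, 6.44 and 3.03 CPM, with 36 of 46 NGO cells, 20 of 51 GO1 cells and 35 of 56 FGO cells holding a UMI. In the thinned cells the order of NGO and GO1 turned, and *Ago4* had a UMI in 2 of 46 NGO, 6 of 51 GO1 and 2 of 56 FGO cells. Its 2 high stages, NGO and GO3, had overlapping counting intervals, and FGO was 2.12-fold below GO3 (1.77 to 2.55) and 2.33-fold below NGO (1.89 to 2.87), under 10 CPM throughout. With thinned cells the latter was 1.22-fold. *Ago1* (chromosome 4, 126112256 to 126145878, minus strand) was close to absent, with 9, 17, 6, 17 and 60 UMIs from NGO to FGO, or 0.357, 0.635, 0.240, 0.341 and 0.933 CPM. In FGO it was found in 20 of 56 cells. *Ago1*, *Ago3* and *Ago4* lie side by side on chromosome 4. *Ago1* and *Ago3* share stretches of 50 identical bases in their annotated exons, as do *Ago1* and *Ago2*, so their counts are uncertain, and *Ago3* overlaps *Gm17553* on the other strand.

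Within the Argonaute family, a share that does not depend on the stage total, *Ago2* held 56.96% of the UMIs in NGO (565 of 992, 95% Clopper-Pearson interval 53.8 to 60.1), 47.3% in GO1 (44.3 to 50.3), 37.8% in GO2 (34.7 to 41.05), 45.5% in GO3 (43.4 to 47.6) and 57.2% in FGO (55.3 to 59.1). *Ago3* held 24.2% in NGO (21.6 to 26.98), 41.3% in GO1 (38.3 to 44.3), 51.7% in GO2 (48.5 to 55.01), 39.4% in GO3 (37.4 to 41.5) and 32.9% in FGO (31.1 to 34.8). With less weight on deep cells the *Ago2* share in FGO was 49.4% in the mean over cells and 44.6% in the cells of 50000 to 1000000 UMIs, against 59.4% and 57.6% in NGO. GO2 was the stage in which *Ago3* held more UMIs than *Ago2*. *Ago3* has the longest annotated exons of the family, and per kilobase *Ago2* kept the larger share in every stage, with 51.2% against 33.9% in GO2. UMI counts need not scale with exon length, so the order of *Ago2* and *Ago3* in GO2 depends on the scale used. *Ago4* held 17.9% (15.6 to 20.5) in NGO and 7.55% (6.56 to 8.64) in FGO, and *Ago1* between 0.652% and 2.32%.

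**Figure D4:**
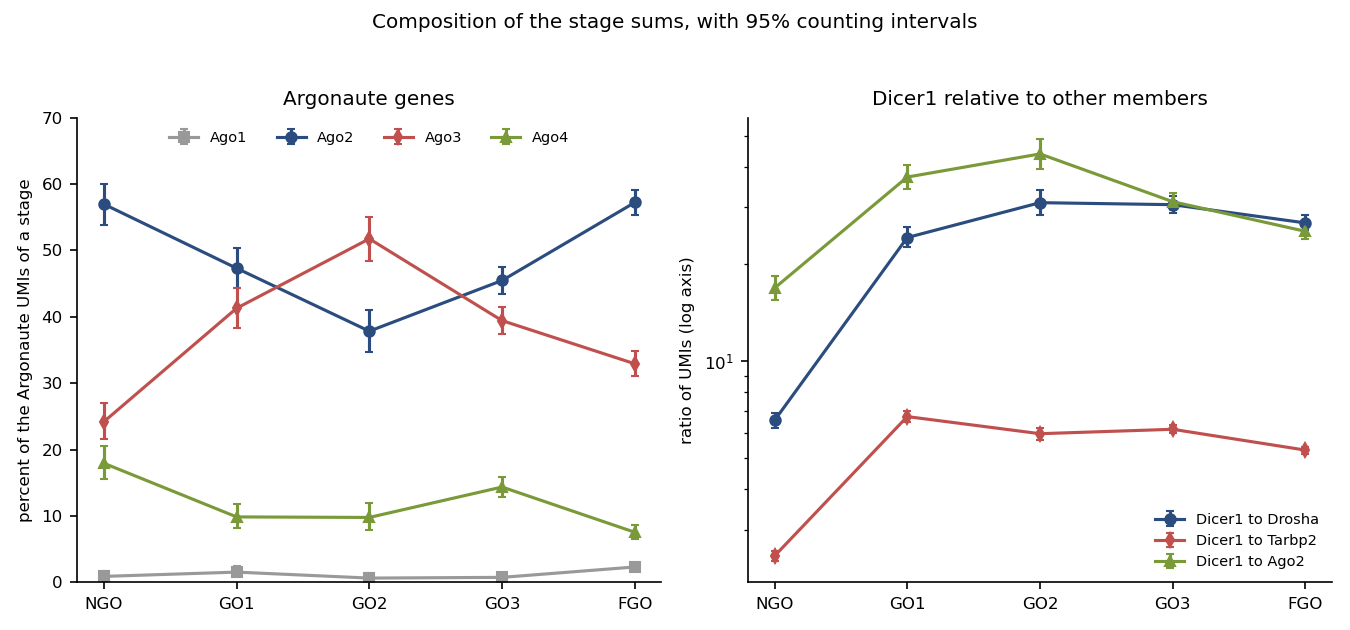
Left, percent of the Argonaute UMIs of a stage (vertical axis from 0) held by each Argonaute gene. Right, ratio of *Dicer1* UMIs to those of *Drosha*, *Tarbp2* and *Ago2* (log axis). Bars are 95% counting intervals. *Ago3* passes *Ago2* in GO2 (51.7% against 37.8%), and the *Dicer1* to *Drosha* ratio goes from 6.55 in NGO to 24.2 in GO1.

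Ratios between members within a stage also do not depend on the stage total. There were 6.55 UMIs of *Dicer1* per UMI of *Drosha* in NGO (95% counting interval 6.20 to 6.93), 24.2 in GO1 (22.5 to 25.99), 31.03 in GO2 (28.4 to 34.01), 30.6 in GO3 (28.8 to 32.6) and 26.8 in FGO (25.4 to 28.3). In single cells the ratio was 1.55 to 26.3 in NGO with a median of 6.67, and 5.25 to 294 in the 43 GO1 cells with a *Drosha* UMI, with a median of 31.5. The *Dicer1* to *Tarbp2* ratio of the sums was 2.49 (2.39 to 2.58) in NGO and 6.73 (6.47 to 7.004) in GO1 and stayed between 5.30 and 6.15 in the later stages. In single cells with a *Tarbp2* UMI its medians were 2.33, 18.7, 6.87, 6.53 and 6.72 in stage order, so by this measure GO1 stood apart from the later stages. The *Dicer1* to *Ago2* ratio of the sums was 16.9 (15.5 to 18.4) in NGO, 43.96 (39.5 to 49.03) in GO2 and 25.3 (24.004 to 26.7) in FGO. In single cells with an *Ago2* UMI its medians were 16.9, 51.5 and 38.03. *Dicer1* alone held 58.6% (57.8 to 59.3) of the UMIs of the 10 members in NGO and 79.2% (78.7 to 79.7) in GO1. A UMI counts a cDNA molecule once whatever its length, so UMI counts need not scale with exon length. As a second scale, levels per kilobase of annotated exon are also given. On that scale *Dicer1* had 37.6 CPM per kilobase and *Tarbp2* 33.4 in NGO, 71.7 and 23.6 in GO1, and *Drosha* 9.72 and 5.03.

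By the size rule, 5 of the 10 members could be called in each comparison (*Dicer1*, *Drosha*, *Tarbp2*, *Ago2* and *Ago3*), the other 5 being under 10 CPM in both stages. From NGO to GO1, 0 of these 5 were called in either direction in the sums, against 20.6% of the 8527 genes that could be called for higher and 25.7% for lower. In the mean over cells 1 of the 5 was called higher (*Dicer1*) and 1 lower (*Tarbp2*), against 22.1% and 34.6% of 8539 genes. From NGO to FGO 1 of 5 was called lower (*Drosha*) and none higher, against 16% and 11.3% of 8132 genes. No member was called from GO1 to GO2, where 0.109% of all genes were called higher and 3.03% lower, in the step to GO3 (3.34% and 1.01%), in that to FGO (2.41% and 3.54%) or from GO1 to FGO (7.98% and 9.03%). Counts over 5 genes are too small to set the members apart from this background. The median log2 change of the 5 was -0.21 from NGO to GO1, against -0.15 over all genes that could be called. Scaling by TMM factors moved that median over all genes to 0.05 and scaling by size factors to -0.02, and no member changed direction between NGO and GO1 or between NGO and FGO under either.

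**Figure D5:**
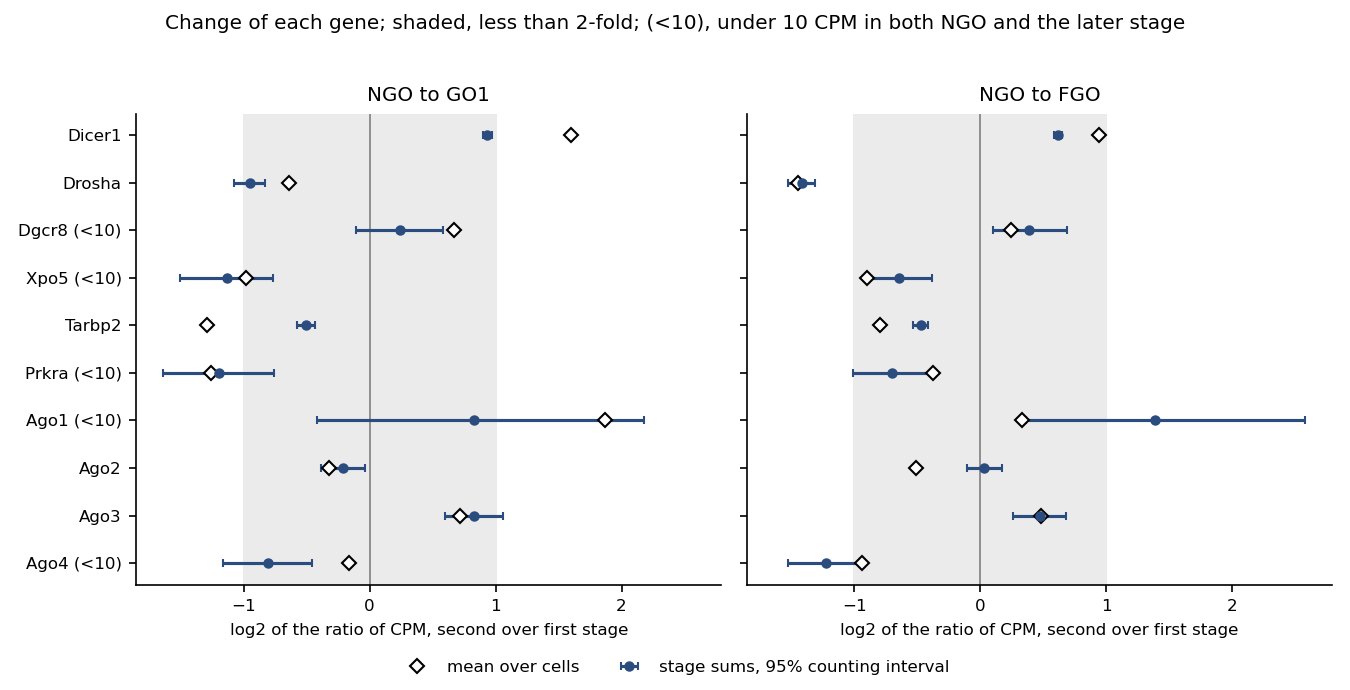
Log2 ratio of CPM from NGO to GO1 and from NGO to FGO for each member (horizontal axis), as stage sums with 95% counting intervals (filled) and as the mean over cells (open diamonds). The shaded band is less than 2-fold. *Drosha* lies beyond it from NGO to FGO (-1.42 in the sums), and of the genes that reached 10 CPM, *Dicer1* (1.60) and *Tarbp2* (-1.29) lie beyond it from NGO to GO1 in the mean over cells.

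Other genes of the pathway were described by 6 lists in the step from NGO to GO1, where 20.6% of all genes were called higher and 25.7% lower in the sums, and 22.1% and 34.6% in the mean over cells. Of the partners of the Microprocessor and of export, 2 of the 10 that could be called were higher and 5 lower, and in the mean over cells 2 and 6 of 11. *Hnrnpa1*, whose protein binds some microRNA hairpins, was 12.8-fold higher in GO1 (11.2 and 143.9 CPM, 95% counting interval 11.4 to 14.5), and *Khsrp* went from 21.1 to 54.8 CPM. *Ncbp1*, a subunit of the nuclear cap-binding complex, was 5.90-fold lower (24.7 and 4.19 CPM, 4.81 to 7.28), and the helicase gene *Ddx5* (527 and 135.99 CPM) and *Ran* (1425 and 312 CPM), the GTPase that drives export, were also among the 5. Of the 9 loading factors, 1 was higher and 4 lower, with the same counts in the mean over cells. *Fkbp5* and *Fkbp4*, related cochaperones of HSP90, went in opposite directions, *Fkbp5* 11.8-fold higher (17.7 and 209.5 CPM, 10.7 to 13.04) and *Fkbp4* 7.95-fold lower (217 and 27.3 CPM, 7.36 to 8.60). The fall of *Fkbp4* was 15.8-fold in the mean over cells and 20.2-fold in the cells of 50000 to 1000000 UMIs, and the rise of *Fkbp5* was 8.58-fold and 6.83-fold.

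Of the 10 effectors that could be called, 2 were higher and 2 lower in the sums, and 4 were higher and 1 lower in the mean over cells. *Limd1*, which links Argonaute to the cap-binding complex, was 3.36-fold higher (7.22 and 24.3 CPM, 95% counting interval 2.85 to 3.99). *Ddx6*, a helicase of P-bodies, was 3.52-fold lower (127.2 and 36.1 CPM, 3.27 to 3.78). The scaffold genes *Tnrc6b* (78.7 and 166.7 CPM) and *Tnrc6a* (71.6 and 32.5 CPM) were called in opposite directions in the sums, but *Tnrc6a* was not called in the mean over cells or in the cells of 50000 to 1000000 UMIs. Of the 8 genes of tailing and turnover, none was higher and 3 were lower in the sums, *Trim71* by 3.58-fold (93.7 and 26.2 CPM, 3.29 to 3.90) and by 7.04-fold in the mean over cells, in which 1 of 7 (*Zcchc6*) was higher and 3 lower. The list of sensors of foreign RNA also holds genes that act downstream of them, and 3 of its genes could be called. *Ddx58*, which encodes the sensor RIG-I, was 3.85-fold higher (7.98 and 30.7 CPM, 3.29 to 4.51). *Irf3*, a transcription factor downstream of such sensors, was 3.05-fold lower (77.2 and 25.3 CPM, 2.79 to 3.34). It was 7.06-fold lower in the mean over cells, which also called *Mavs* lower.

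Of the 5 protein genes that are known as targets of endogenous small interfering RNAs in oocytes, 4 were lower in GO1 and none higher in the sums, against the 25.7% and 20.6% of all genes, and 5 were lower in the mean over cells, against 34.6%. *Rangap1* was 17.6-fold lower (108.1 and 6.13 CPM, 95% counting interval 15.1 to 20.8), 37.3-fold in the mean over cells and 33.7-fold in the cells of 50000 to 1000000 UMIs, and *Hdac1* (86.5 and 12.2 CPM), *Ppp4r1* (65.04 and 22.99 CPM) and *Kif4* (332 and 160 CPM) were the others, of which *Kif4* was not called in that window. *Pdzd11* had 194 and 99.5 CPM. The median log2 change of the 5 was -1.50, against -0.15 over all genes that could be called. This list, like the other lists, was chosen with earlier results of these data known. Counts over 5 genes are too small to set the list apart from the background. In FGO *Rangap1* was at 20.1 CPM and *Hdac1* at 35.9 CPM. Of the 5, 2 were called higher in FGO than in GO3, against 2.41% of all genes, and 3 higher than in GO1, against 7.98%. The 10 genes of these lists given with an interval kept their call and direction in the mean over cells. What their levels owe to small RNAs was not tested. Several of these genes, such as *Hnrnpa1* and *Ran*, have processed copies elsewhere in the genome, so their counts are uncertain.

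The genes whose profile over the 5 stages was most like that of *Dicer1* were *Etaa1*, *Mrpl47* and *Rfc3*, among 2695 genes with at least 50 CPM in every stage. Their root mean square difference from *Dicer1* in centred log2(CPM + 1) was 0.0481, 0.0493 and 0.0494. The level of *Etaa1* was 55.2 CPM for NGO and 103.95 CPM for GO1. For *Ago2* they were *Anapc4*, *Mdm2* and *Jak1*, with differences of 0.0730, 0.0884 and 0.0913 among 2696 genes, and *Anapc4* had 135.5 CPM in NGO, 91.3 CPM in GO2 and 129.06 CPM in FGO. The 50 CPM limit applied to the compared genes, and *Ago2* itself was below it, at 13.9 to 22.97 CPM. The profiles were those of the sums, in which *Ago2* had 22.4 CPM in NGO and 22.97 CPM in FGO. In the mean over cells it had 22.9 and 16.1 CPM, so its likeness depends on the weight of deep cells. Each likeness rests on 5 pooled samples.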

How the data were processed

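Single oocytes were lysed and reverse transcribed, and the libraries were sequenced in paired reads. The authors assigned reads to cells, trimmed them, used Tophat with the mm9 transcriptome for alignment, removed duplicates by UMI and, after filters on detected genes, transcripts and spike-ins, deposited raw UMI counts, not normalized. The groups are the stages in the names of the columns. Library, and so batch, could not be assigned to cells, and no column was left unmapped. No doublet caller was run on the hand-picked cells.

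Counts were summed per stage and scaled to CPM. Intervals are exact at 95%. No statistical test between stages was run. The 10 members, the 6 pathway lists, the markers, the 2-fold and 10 CPM limits and the rule for named genes (all members, the largest rise and fall from NGO to GO1 in each list, and the 3 profiles nearest to *Dicer1* and *Ago2*) were chosen with earlier results of these data known. Log values for profiles used a pseudocount of 1. Alternatives were DESeq2 1.42.0 size factors and edgeR 4.0.16 TMM factors (scaling only), means over cells, cells thinned to 20000 UMIs, 26 cells drawn per stage, sums that leave out the 10 deepest cells in every stage, other limits, exon length and, added after the data were seen, cells of 50000 to 1000000 UMIs. The script for the size rule was checked on simulated counts. Gene positions are from GENCODE vM1 (NCBIM37, the assembly of mm9), where the Argonaute genes are named *Eif2c1* to *Eif2c4*. Promoter sequences are from RefSeq (GRCm38.p6), another build, and no coordinate was converted. Scripts ran in R 4.3.3 and Python 3.11.15 with scipy 1.17.1, pandas 2.3.3, numpy 2.4.6 and matplotlib 3.10.9. Chromatin accessibility and DNA methylation were not analysed here.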

Additional observations from a re-analysis of the deposited data

How the results depend on the processing

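No paired analysis was possible because each stage is 1 pooled sample without replicates and no result comes from a test. Over all comparisons, 43 of 60 counts of members past the size rule were unchanged under the alternatives. From NGO to GO1 the count was 0 in the sums, 1 with DESeq2 or TMM factors (*Dicer1*), 2 in the mean over cells, with thinned cells, without the 10 deepest cells and in cells of 50000 to 1000000 UMIs (*Dicer1* higher, *Tarbp2* lower), 1 with 26 cells a stage (*Drosha*), 3 at 1.5-fold (*Dicer1*, *Ago3*, *Drosha*) and 2 with no minimum CPM (*Xpo5*, *Prkra*). Of all genes that could be called in that step, 23.2% were higher with DESeq2 and 24.5% with TMM factors. In the mean over cells, with thinned cells, without the 10 deepest cells and in the depth window, at least 21.6% were higher and 34.1% lower. With 26 cells a stage 28.2% were lower. At 1.5-fold 30.0% were higher and 36.4% lower, and with no minimum more than 30.0% were lower. From GO1 to GO2 the member count was 0 in the sums, 2 with thinned cells (*Drosha*, *Ago2*), 1 at 1.5-fold (*Drosha*) and 1 with no minimum (*Ago1*). All of these were lower, against 15.9%, 14.1% and 15.6% of all genes that could be called. From GO3 to FGO the member count was 2 with no minimum (*Ago1* higher, *Ago4* lower) against 0 in the sums. With no minimum 14.9% of all genes were higher and 13.6% lower. From NGO to FGO the member count was 1 in the sums, 3 with thinned cells (*Drosha*, *Tarbp2*, *Ago2*), 2 at 1.5-fold (*Dicer1*, *Drosha*) and 3 with no minimum (*Ago1*, *Drosha*, *Ago4*). Of all genes, 11.8% were higher and 22.3% lower with thinned cells, 21.1% and 30.0% at 1.5-fold and 21.9% and 23.7% with no minimum. From GO1 to FGO the member count was 1 with thinned cells (*Drosha*, lower) against 0 in the sums, and 17.7% of all genes were lower with thinned cells. From NGO to GO1 the *Ago2* share of Argonaute UMIs changed by -9.65 percentage points, and by -21.6 with thinned cells, in which *Ago3* was not higher in GO1. Per exon length the change was smaller, from a share of 64.3% in NGO to 59.7% in GO1. The *Tarbp2* share of *Tarbp2* and *Prkra* UMIs changed by 1.31 points in the sums and 2.74 per exon length, and turned to -0.0918 in the mean over cells, -1.21 without the 10 deepest cells and -0.987 in the depth window. The *Dicer1* to *Drosha* ratio was 3.69-fold higher in GO1 in the sums, 4.71-fold in the mean over cells, 4.92-fold with 26 cells a stage, 7.08-fold without the 10 deepest cells and 5.66-fold in the depth window. Of 418 log2 changes of members, 82 turned sign under an alternative. The causes were not tested. Members under 10 CPM, *Ago1* above all, are limited by depth.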
